A study of Homo sapiens with 52 samples.

Results

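PFI-2 is an inhibitor of SETD7, and it was the only compound with this target among the 20 small molecules of a screen on fusion-positive rhabdomyosarcoma (FP-RMS) cells. FP-RMS is a childhood soft-tissue cancer driven by the fusion transcription factor PAX3-FOXO1. The PFI-2 samples were the 2 libraries labelled with the compound, 1 at 10 µM and 1 at 1 µM, out of 52 samples in the series. They were set against the 4 DMSO (solvent) samples of the screen, of which 2 received 0.2% DMSO and 2 received 0.1%. All 6 samples had been treated for 6 h. The titles call the cells RH41 and the cell line label calls them RH4, both FP-RMS lines, and no other genotype or treatment is labelled. Of the 27043 genes in the deposited tables, 13885 reached a level of 1 TPM (an expression unit scaled for gene length and library size) in at least 2 of the 6 samples and were tested.

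SETD7 is a lysine methyltransferase that places a single methyl group on lysine 4 of histone H3 and also methylates many proteins that are not histones, among them p53, the estrogen receptor, DNMT1 and YAP. Methylated YAP is held in the cytoplasm, which ties the enzyme to the Hippo pathway, whose effectors YAP and TEAD switch on growth and matrix genes in the nucleus. In muscle cells SETD7 is known to associate with MyoD during differentiation. An inhibitor acts on the enzyme protein, so the level of the SETD7 transcript says nothing about whether the enzyme was blocked.

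The libraries themselves differed. Both PFI-2 libraries were on flow cell C5JW5ACXX, while each DMSO concentration had 1 library on flow cell C4JM1ACXX and 1 on H144EBGXX, so the PFI-2 contrast with DMSO and the flow cell cannot be told apart. The flow cell is known only from the names of the deposited tables. A second reference was therefore taken from the 26 other libraries of the PFI-2 flow cell, which are the high and low doses of 13 compounds with other targets; they are treated cells, not controls. The whole numbers recovered from the TPM values summed to 11232359 at 10 µM and 5737939 at 1 µM, against 16772069 to 22400978 in DMSO and 6508337 to 21137891 in the 26 others. In the 10 µM library 77.1% of the genes with a recovered number of 1 to 6 had an even number, against 38.6% at 1 µM. Only the high doses of Bromosporin (74.9%) and Merck60 (73.1%) shared this, and the other 41 screen libraries lay between 36.5% and 40.8%. The cause was not tested, and a number recovered for the 10 µM library need not be its number of reads. Where a gene is given with an adjusted p below 0.05 and missed that threshold without the library, the adjusted p without it is given too.

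The SETD7 transcript did not pass the test in either contrast. It stood at 36.4 TPM with 10 µM and 37.5 TPM with 1 µM PFI-2, against 32.6 and 35.1 TPM with 0.2% DMSO and 35.8 and 35.3 TPM with 0.1% DMSO (hg19 chr4:140417089-140477923, minus strand). Both PFI-2 values lay just above the highest DMSO value. The log2 fold change was 0.09 ± 0.26 (SE; limma, Benjamini-Hochberg adjusted p = 0.91) against DMSO and 0.15 ± 0.22 (adjusted p = 0.798) against the 13 compounds, whose samples ran from 8.91 to 53.8 TPM with a median of 39.4. Log2 fold changes throughout are on the log2(TPM + 1) scale, which understates the change of genes with low levels. The p-values measure only a spread pooled over all screen samples, with the doses of each compound taken as replicates. That spread includes dose differences of other compounds, and the rest of it may be technical.

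The core regulatory transcription factors, which together hold the myogenic super enhancers of FP-RMS active, were next in line. MYOD1, the myogenic master regulator, stood at 380 and 366 TPM with 10 and 1 µM, against 647, 641, 640 and 648 TPM in the 4 DMSO samples. The groups did not overlap, yet the difference of -0.79 ± 0.30 missed the threshold (adjusted p = 0.184). Its SE comes from the spread pooled over the screen, which includes dose differences of other compounds, not from these 6 samples alone. The 26 samples of the other compounds had a median of 456 TPM for MYOD1, and against them the difference was -0.11 (adjusted p = 0.874). SOX8, a neural crest and muscle progenitor factor, stood at 495 and 484 TPM against 664 to 707 TPM in DMSO, a difference of -0.49 ± 0.14 (adjusted p = 0.0595). With the samples rescaled by median ratios SOX8 passed the threshold at -0.52. FOXF1, a forkhead factor, stood at 89.7 and 73.9 TPM against 104 to 115 TPM. MYOG, the differentiation factor downstream of MYOD1, stood at 533 and 480 TPM against 572 to 587 TPM, and MYCN, a MYC family oncogene, at 48.1 and 51.0 TPM against 53.3 to 57.5 TPM. Only PAX3, the 5′ partner of the fusion, overlapped DMSO, at 33.8 and 39.5 TPM against 38.6 to 43.9 TPM. Thus 5 of 6 factors lay below all 4 DMSO samples and 0 of 6 passed the test, where 2772 of 13885 tested genes (20%) lay below all 4 DMSO samples. The list median was -0.31 against DMSO and 0.02 against the other compounds, beside a median of 0.05 over all tested genes in each contrast.

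**Figure D1:**
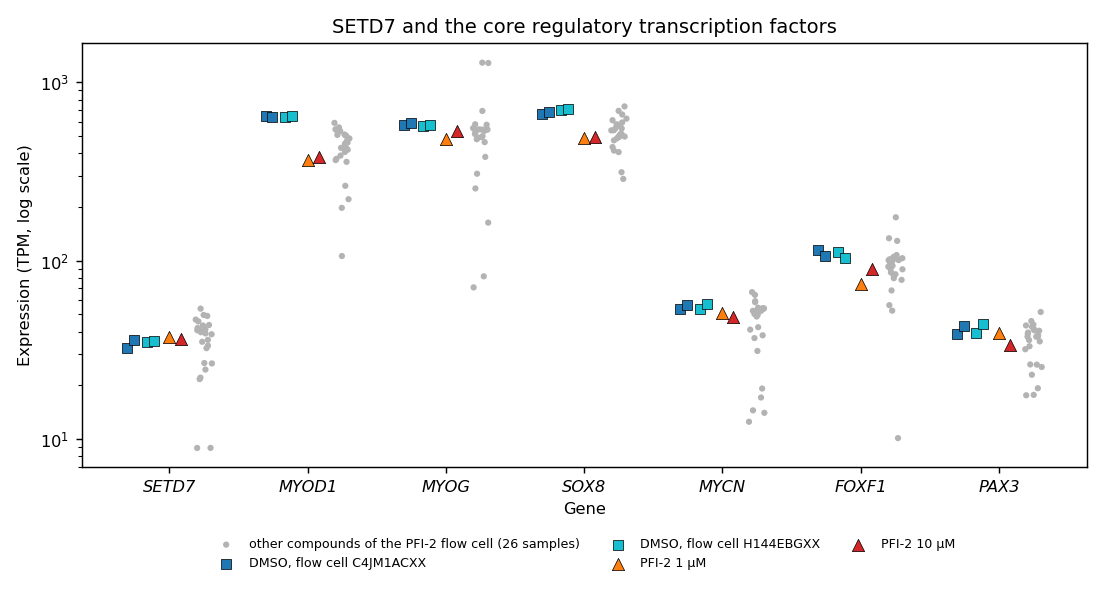
Expression of SETD7 and the 6 core regulatory transcription factors in TPM on a log axis; triangles are the PFI-2 samples, squares the 4 DMSO samples by flow cell, and grey points the 26 samples of other compounds on the PFI-2 flow cell. MYOD1 is at 380 and 366 TPM with PFI-2, below the DMSO samples at 640 to 648 TPM and inside the grey range.

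Few genes passed the thresholds in the contrast of PFI-2 with DMSO. Of 13885 tested, 43 (0.310%) passed an adjusted p of 0.05 with at least a 2-fold change, called below, with 23 higher (0.166%) and 20 lower (0.144%). All 43 moved the same way at both doses relative to the DMSO mean, which selection on these same 2 PFI-2 samples makes nearly certain. The adjusted p alone was passed by 335 genes (2.41%), of which 122 were higher (0.879%) and 213 lower (1.53%). An unadjusted p of 0.05 by limma was passed by 2056 genes. Both PFI-2 samples lay above all 4 DMSO samples in 4370 genes (31.5%) and below all 4 in 2772 (20%). The 20 compounds of the screen were ordered by the number of genes called against the same DMSO samples. PFI-2 came 9th from the fewest, between OJI-1 with 20 and LSD-519 with 66. The range ran from 1 for GSKJ4 to 3657 for LAQ824. GSKJ4 and LAQ824 each shared a flow cell with DMSO samples and PFI-2 did not, so these counts are not on an equal footing. The PFI-2 count of 43 depended on the libraries. It was 28 without the 10 µM library, of which 15 had been among the 43, and 43 without the 1 µM library, of which 19 had been among the 43. DMSO samples of equal concentration agreed within counting noise once the flow cell was allowed for, with a squared deviation of 1.03 times that noise in the median over 10378 genes, so they were also averaged within a concentration, which gave 24. The same measure was 2.47 between the DMSO concentrations and 2.21 between the flow cells, so neither pair agreed within that noise. The count of 43 and the printed SE and p take the 4 DMSO samples as separate, and may overstate the number of independent controls.

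Between the DMSO concentrations themselves 1 gene was called (0.00720%). This was MIR6079, a microRNA gene listed at 2.46 and 1.97 TPM with 0.2% DMSO and at 0 in both 0.1% DMSO samples and both PFI-2 samples. It was named after its values were seen. Of 13885 tested genes, 59 passed an unadjusted p of 0.05 in that comparison, by limma with the spread pooled over the screen. The DMSO concentrations were balanced over their flow cells and the PFI-2 contrast was not, so the count of 1 is no control level for the 43.

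**Figure D2:**
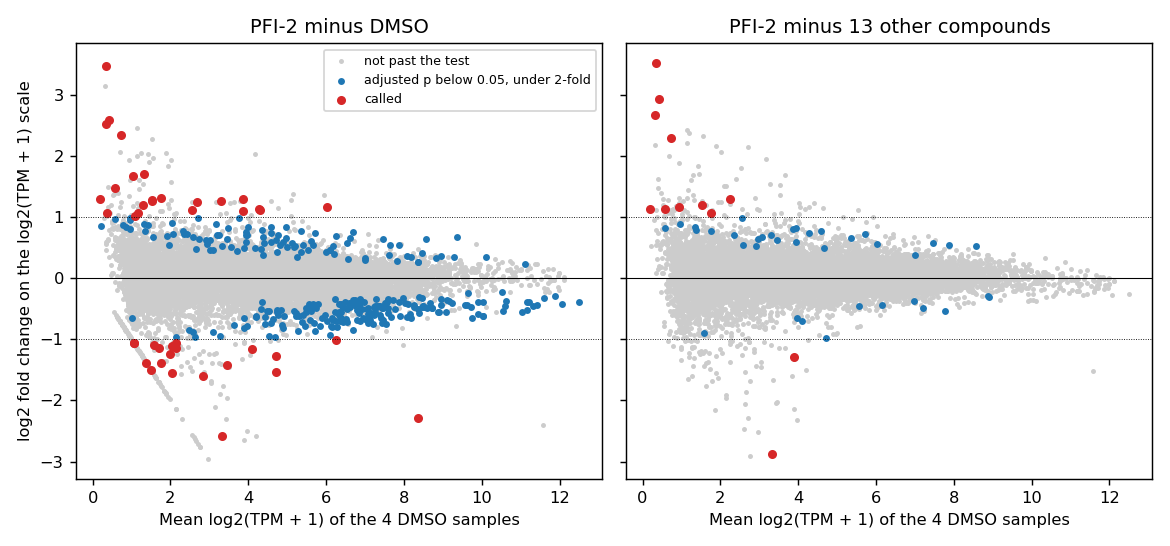
Log2 fold change of PFI-2 against DMSO (left) and against the 13 other compounds of its flow cell (right) for each of 13885 tested genes, plotted over the mean log2(TPM + 1) of the 4 DMSO samples. Red points are the 43 and 12 called genes, blue points pass the adjusted p with less than a 2-fold change, and dotted lines mark 2-fold.

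CCDC80, a secreted extracellular matrix protein listed among YAP and TEAD targets, was called higher with PFI-2. It stood at 37.8 TPM with 10 µM and 31.9 TPM with 1 µM, against 12.8, 14.0, 14.3 and 13.1 TPM in the 4 DMSO samples. Each PFI-2 value was more than 2-fold above the highest DMSO sample, and the log2 fold change was 1.298 ± 0.15 (adjusted p = 4.86e-05). The other 26 samples of the flow cell ran from 10.5 to 35.1 TPM with a median of 18.5, so the 10 µM value lay above all of them and the 1 µM value did not. Against them the difference was 0.81 (adjusted p = 0.0024, and 0.166 without the 10 µM library).

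GABRE, the epsilon subunit of the GABA-A receptor, stood at 21.7 and 23.9 TPM with 10 and 1 µM, against 10.1 and 9.40 TPM with 0.2% and 7.82 and 8.35 TPM with 0.1% DMSO. The groups were well apart, with a log2 fold change of 1.27 ± 0.18 (adjusted p = 0.000242) against DMSO and 0.70 (adjusted p = 0.0311, and 0.208 without the 10 µM library) against the other compounds. NCALD, a neuronal calcium sensor, stood at 6.30 and 5.74 TPM against 2.00, 1.54, 2.19 and 1.87 TPM, a change of 1.28 ± 0.20 (adjusted p = 0.000568). Its level in the other compounds reached 7.93 TPM, and the difference from them, 0.53, missed the threshold (adjusted p = 0.162).

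The naming rule did not take all genes called higher, and 4 further ones were named after their values were seen. CD36, the fatty acid and thrombospondin receptor, stood at 43.9 and 39.5 TPM against 17.6 to 19.6 TPM in DMSO, a change of 1.13 (adjusted p = 0.000773), with 0.74 (adjusted p = 0.0228, and 0.424 without the 10 µM library) against the other compounds. THBS1, the matrix glycoprotein thrombospondin, stood at 38.4 and 44.8 TPM against 17.1 to 20.8 TPM, a change of 1.12 (adjusted p = 0.045). SCG2, a secretory granule protein, rose from 1.23 to 1.89 TPM in DMSO to 5.06 and 4.34 TPM (1.21, adjusted p = 0.00154), and LINC00989, a long noncoding RNA, from 4.55 to 5.05 TPM to 13.8 and 9.93 TPM (1.12, adjusted p = 0.0081). Leaving out the 10 µM library, CD36 had an adjusted p of 0.0411 against DMSO, while THBS1 (0.22), SCG2 (0.0742) and LINC00989 (0.246) missed the threshold. Against the other compounds LINC00989 had 0.0204 with that library and 0.504 without it. In each of the 4 both PFI-2 samples lay above all 4 DMSO samples, as they did in 31.5% of all tested genes. Other compounds also reached such levels, up to 76.2 TPM for THBS1, and against them its difference of 0.71 missed the threshold (adjusted p = 0.219). With DMSO averaged within a concentration, THBS1 no longer passed (adjusted p = 0.214).

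**Figure D3:**
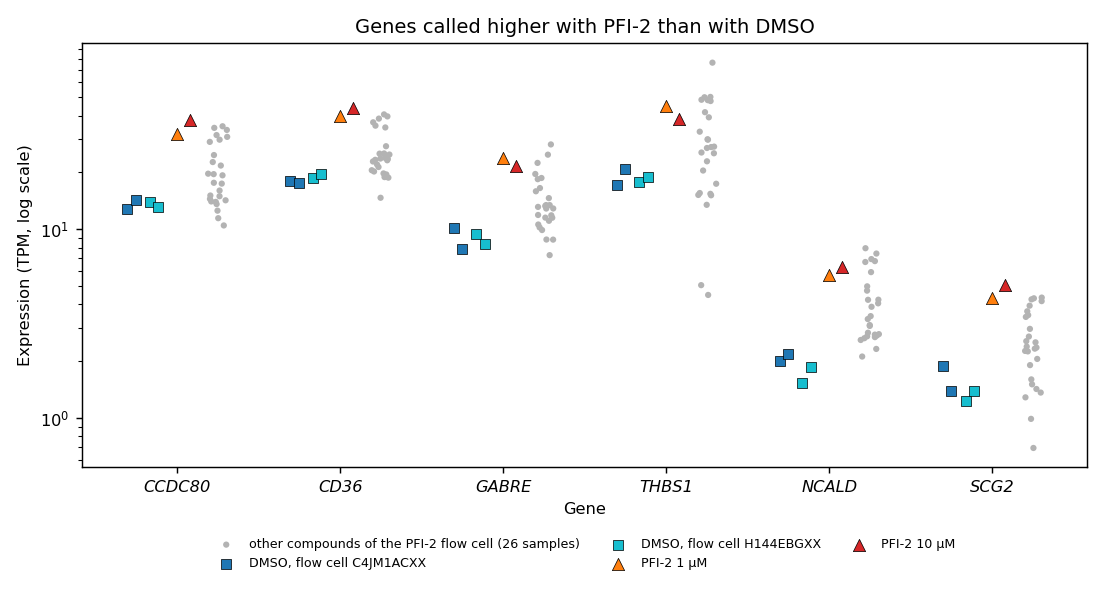
Expression in TPM on a log axis of 6 protein-coding genes called higher with PFI-2, with the PFI-2 samples as triangles, the 4 DMSO samples as squares by flow cell and the 26 samples of other compounds on the PFI-2 flow cell as grey points. For each gene both triangles lie above all 4 squares, and for GABRE, THBS1 and NCALD grey points reach beyond them.

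Promoter sequence is shown for CCDC80, GABRE and THBS1, since YAP acts through TEAD factors that bind DNA and the first and the last of these genes are among those called higher with a role in the matrix. The RefSeq bases on build GRCh38.p14 before the annotated start of transcription were searched on both strands for CATTCC, the TEAD motif, and for CAGCTG, the E-box bound by MYOD1 and MYOG; no match to one of them is a match to the other. Capitals mark a match. The 250 bases are chr3:112641144-112641393, minus strand, for CCDC80, chrX:151974677-151974926, minus strand, for GABRE and chr15:39580829-39581078, plus strand, for THBS1, on a build that differs from the hg19 coordinates of the deposited tables.
CCDC80: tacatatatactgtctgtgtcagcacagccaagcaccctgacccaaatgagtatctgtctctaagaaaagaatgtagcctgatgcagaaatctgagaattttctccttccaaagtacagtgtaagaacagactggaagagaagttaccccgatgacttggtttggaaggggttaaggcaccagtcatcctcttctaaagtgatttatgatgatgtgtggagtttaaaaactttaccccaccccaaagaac
GABRE: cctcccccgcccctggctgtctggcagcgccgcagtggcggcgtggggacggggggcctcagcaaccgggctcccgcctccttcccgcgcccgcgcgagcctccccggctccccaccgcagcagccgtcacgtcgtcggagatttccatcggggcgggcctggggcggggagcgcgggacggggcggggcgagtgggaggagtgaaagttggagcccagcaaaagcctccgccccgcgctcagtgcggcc
THBS1: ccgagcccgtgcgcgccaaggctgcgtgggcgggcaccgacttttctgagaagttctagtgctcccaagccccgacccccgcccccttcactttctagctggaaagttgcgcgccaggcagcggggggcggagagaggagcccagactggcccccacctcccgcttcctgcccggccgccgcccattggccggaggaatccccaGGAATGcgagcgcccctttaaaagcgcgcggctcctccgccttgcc
THBS1 held 1 CATTCC match, on the reverse strand at 46 bases before the start. CCDC80 and GABRE held no match to either motif in this window. Of 35116 promoter windows of the same length, 11.9% held CATTCC and 14.0% held CAGCTG, so a single match is common. The windows of GABRE and THBS1 were rich in G and C (76.8% and 69.6%) and that of CCDC80 was not (42.0%), against a median of 58.0% over all windows.

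The remaining named genes that rose rested on small numbers. Recovered whole numbers are called units here. SNORD82, a C/D box small nucleolar RNA (snoRNA) in an intron of NCL, stood at 13.3 and 12.9 TPM, which was 4 and 2 units, against 0 TPM in 3 DMSO samples and 1.63 TPM in the fourth. SNORD41, in an intron of TNPO2, stood at 7.15 and 6.94 TPM (2 and 1 units), SNORA80B, an H/ACA box snoRNA in an intron of ODC1, at 3.68 and 14.3 TPM (2 and 4 units), and the microRNA gene MIR4723, which overlaps an exon of TMEM199, at 3.09 and 11.99 TPM (1 and 2 units). DMSO did not exceed 2.17, 1.12 and 1.52 TPM in these 3. The log2 fold changes were 3.47 for SNORD82, 2.59 for SNORD41, 2.35 for SNORA80B and 2.53 for MIR4723, with adjusted p of 0.000814, 0.000568, 0.0157 and 0.000814. At such numbers a fold is set by a few reads, and a read of a short gene can come from its host transcript.

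LY96, a partner of the lipopolysaccharide receptor, stood at 6.51 and 4.74 TPM (16 and 6 units) against 0.266 to 2.18 TPM (1.67, adjusted p = 0.0453), and IGFL1, a secreted insulin growth factor-like protein, at 7.16 and 7.58 TPM (22 and 12 units) against 1.59 to 3.82 TPM (1.31, adjusted p = 0.00473). The noncoding genes LOC101928307, LOC100130698 and LINC00944 rose by 1.70, 1.26 and 1.26 on the log2 scale (adjusted p = 0.0275, 0.00651 and 0.0203). All 5 missed the threshold against DMSO without the 10 µM library, with adjusted p of 0.422 for LY96, 0.0837 for IGFL1, 0.531 for LOC101928307, 0.0774 for LOC100130698 and 0.0742 for LINC00944. Without the 1 µM library all but LOC101928307 missed it. None of these 5 genes had more than 76 units in a PFI-2 library. Over all 23 genes called higher, 7 had fewer than 20 units in both PFI-2 libraries and 5 were small RNA genes. In 14 of the 23 both PFI-2 samples lay above all 26 other samples of the flow cell, as in 82 of 13885 tested genes (0.591%). The 23 were selected for high values in these same 2 PFI-2 samples, which favours such a position. Without the 10 µM library 8 of the 23 were called, without the 1 µM library 11, and with DMSO averaged 13.

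ATP5E, the epsilon subunit of ATP synthase, was called lower with PFI-2 than with DMSO and was similarly low with the other compounds. It stood at 46.7 TPM with 10 µM and 96.2 TPM with 1 µM. The DMSO samples stood at 200 and 204 TPM on flow cell C4JM1ACXX and at 538 and 544 TPM on H144EBGXX. Both PFI-2 samples were below all DMSO samples, with a log2 fold change of -2.28 ± 0.31 (adjusted p = 0.000242), but DMSO itself was more than 2-fold apart between flow cells and the 26 samples of other compounds stood at 42.3 to 122 TPM. Against these the difference was -0.39 (adjusted p = 0.531). GNG10, a G protein gamma subunit, and NME2, a nucleoside diphosphate kinase, had the same form. GNG10 stood at 1.59 and 1.16 TPM against 2.79 and 3.25 TPM on C4JM1ACXX and 11.4 and 12.4 TPM on H144EBGXX (-1.60, adjusted p = 0.00859), and 0.427 to 2.40 TPM with the other compounds. NME2 stood at 4.12 and 2.29 TPM against 5.19 and 4.03 TPM and 21.4 and 19.98 TPM (-1.42, adjusted p = 0.0429), so that its 10 µM value overlapped DMSO. Neither GNG10 nor NME2 passed without the 10 µM library (adjusted p = 0.0874 and 0.134) or without the 1 µM library. Both genes lie within readthrough genes, DNAJC25-GNG10 and NME1-NME2, and their reads may have been split.

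MZT2B, a subunit of the gamma-tubulin ring complex with a near-identical copy in MZT2A, stood at 35.4 and 39.0 TPM against 66.6, 81.4, 69.0 and 89.5 TPM in DMSO. The groups did not overlap (-1.01 ± 0.16, adjusted p = 0.000531), and against the other compounds, at 33.8 to 58.3 TPM, the difference was -0.33 (adjusted p = 0.254). MZT2B fell short of 2-fold against DMSO without the 10 µM library (-0.95). It also did so without the 0.2% or the 0.1% DMSO sample of flow cell H144EBGXX (-0.98 and -0.94). With any other of the 6 samples left out it lay between -1.06 and -1.08. TRAPPC5, a subunit of a vesicle tethering complex, stood at 12.9 and 7.43 TPM against 21.5 to 26.7 TPM in DMSO (-1.27, adjusted p = 0.00473) and 6.76 to 24.9 TPM in the others. DDT, a macrophage migration inhibitory factor homologue with a near-identical neighbour, stood at 5.22 and 12.3 TPM against 20.6 to 32.5 TPM (-1.54, adjusted p = 0.000842, but -0.99 and 0.145 without the 10 µM library), and differed by -0.97 (adjusted p = 0.0395, and 0.852 without the 10 µM library) against the others. SNORA71B, an intronic snoRNA of SNHG17, was at 1.84 and 0 TPM (1 and 0 units) against 3.60 to 14.3 TPM (-2.58, adjusted p = 0.0061). TRAPPC5 and SNORA71B lost their calls against DMSO without the 1 µM library, at -0.91 and -1.83.

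**Figure D4:**
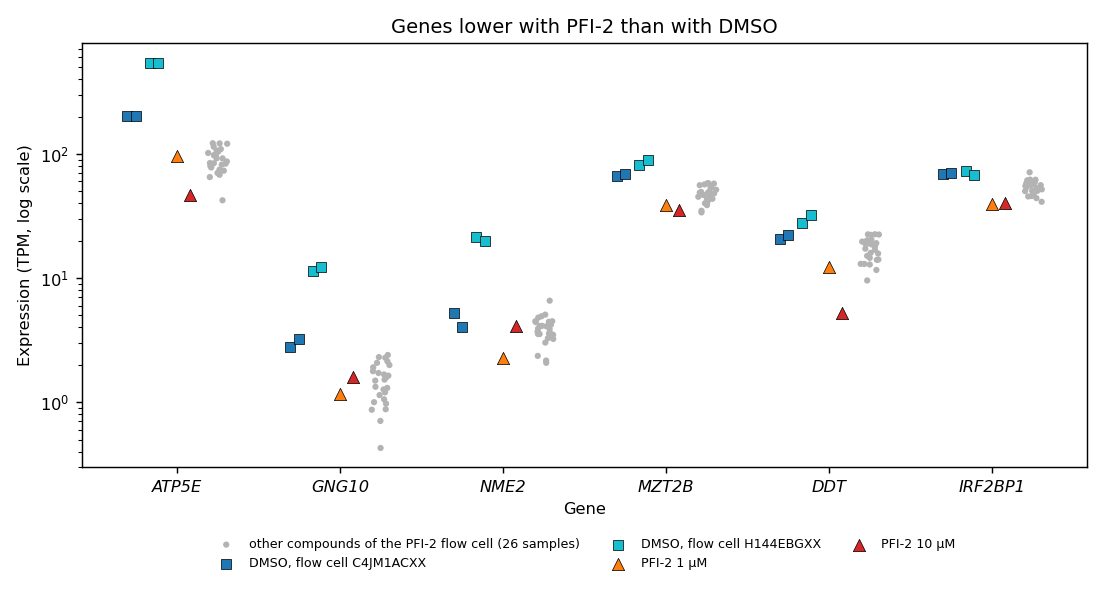
Expression in TPM on a log axis of 6 genes lower with PFI-2 than with DMSO by the adjusted p, drawn with the PFI-2 samples as triangles, the 4 DMSO samples as squares by flow cell and the 26 samples of other compounds as grey points. For ATP5E, GNG10 and NME2 the DMSO squares split by flow cell and the grey points lie with the triangles, whereas for IRF2BP1 both triangles lie below all grey points.

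Of the 20 genes called lower, 16 had fewer than 20 units in both PFI-2 libraries, 3 were those whose DMSO level differed 2-fold or more between flow cells (113 tested genes did so), and 7 had a median over the 26 other samples that was already at least midway from DMSO to PFI-2. Of the 213 genes lower by the adjusted p alone, 126 had this property, against 26 of the 122 higher genes. The 213 also had shorter transcripts richer in G and C, with medians of 2276 nt and 60.6%, against 3748 nt and 47.9% over all tested genes and 3877 nt and 45.3% in the 122. The other compounds of the flow cell stood 0.31 below DMSO in the median over the 213 on the log2 scale, 0.21 above it over the 122 and 0.02 above it over all tested genes. The part of flow cell, transcript length and base composition in the PFI-2 contrast was not tested.

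Against the 13 other compounds of the same flow cell, fewer genes passed the thresholds. An unadjusted p of 0.05 by limma was passed by 1927 genes, close to the 2056 against DMSO. Here 12 genes were called (0.0864%), 10 higher (0.0720%) and 2 lower (0.0144%), and 49 passed the adjusted p alone (0.353%), 36 higher (0.259%) and 13 lower (0.0936%). Both contrasts share the PFI-2 libraries. The 7 called higher with a mean of at least 5 TPM were SNORD82, SNORD41, MIR4723, SNORA80B, LINC00945, LOC100130698 and IGFL1, and the 2 called lower were SNORA71B and SNORA5C. LINC00945, a long noncoding RNA, stood at 7.95 and 8.01 TPM, above all 26 others, which reached 6.78 TPM (1.31, adjusted p = 0.0373), while its difference from DMSO, at 2.15 to 5.19 TPM, missed the threshold (0.93, adjusted p = 0.158). SNORA5C, in an intron of TBRG4, stood at 5.48 and 7.09 TPM (3 and 2 units) against 6.08 to 31.9 TPM with a median of 16.7 (-1.29, adjusted p = 0.0424). The lower side was filled by the rule with genes past the adjusted p, among them DDT and ZNF219, a zinc finger repressor that stood at 6.98 and 9.30 TPM against a median of 12.02 TPM in the others (-0.65, adjusted p = 0.044) and 14.2 to 15.01 TPM in DMSO (-0.78, adjusted p = 0.0114). Without the 10 µM library the adjusted p against the other compounds was 0.34 for LINC00945, 0.504 for SNORA5C, 0.651 for ZNF219, 0.105 for LOC100130698 and 0.23 for IGFL1, and ZNF219 had 0.328 against DMSO.

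In the same direction against both references 9 genes were called (0.0648%), 8 higher and 1 lower, and 40 passed the adjusted p alone (0.288%), 28 higher and 12 lower. The 9 were SNORD82, SNORD41, SNORA80B, MIR4723, LOC100130698, IGFL1, MPP4, TMEM238 and SNORA71B. MPP4, a scaffold protein of photoreceptors, stood at 3.56 and 2.77 TPM (35 and 14 units) against 0.248 to 0.797 TPM in DMSO (1.47, adjusted p = 0.00312), and above all 26 others, which reached 2.52 TPM. TMEM238, a membrane protein, stood at 2.27 and 1.47 TPM (6 and 2 units) against 0 TPM in 3 DMSO samples and 0.737 TPM in the fourth (1.31, adjusted p = 0.00676). LOC100130698 stood at 5.48 and 6.44 TPM (76 and 46 units), above DMSO at 1.27 to 2.496 TPM and the others at up to 5.39 TPM. Of the 9, 6 had fewer than 20 units in both PFI-2 libraries. MPP4 and TMEM238 without the 10 µM library had adjusted p of 0.11 and 0.193 against DMSO and of 0.425 and 0.439 against the others. Then 5 of the 9 were called, and these were the 5 small RNA genes, which had 0 to 4 units in the library that was left. Without the 1 µM library 2 were called, and with a mean of at least 5 TPM required, 1.

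Some well-counted genes passed the adjusted p against both references at less than 2-fold. IRF2BP1, a corepressor partner of IRF2, stood at 40.2 and 39.4 TPM with 412 and 208 units, against 69.2, 73.1, 70.2 and 68.1 TPM in DMSO and 41.2 to 71.2 TPM in the 26 others. Both PFI-2 values lay below all 30 reference samples, with -0.80 ± 0.10 (adjusted p = 8.17e-05) against DMSO and -0.44 (adjusted p = 0.0185, and 0.185 without the 10 µM library) against the others. ZNF891, a zinc finger gene, stood at 8.36 and 8.86 TPM, above DMSO at 4.76 to 5.34 TPM and above the others at up to 7.32 TPM (0.67 and 0.55, adjusted p = 0.00429 and 0.0204). RUFY2, a membrane trafficking protein, stood at 18.0 and 14.8 TPM, above DMSO at 9.87 to 10.1 TPM and the others at up to 13.02 TPM (0.65 and 0.63, adjusted p = 0.0168 and 0.0224). ZNF891 and RUFY2 without the 10 µM library had adjusted p of 0.0714 and 0.357 against DMSO and of 0.185 and 0.519 against the others. Among genes outside the naming rule, chosen after their values were seen, PNN, a splicing-associated desmosome and speckle protein, stood at 341 TPM in both PFI-2 samples against 230 to 239 TPM in DMSO and a median of 227 TPM in the others (0.55 in each contrast, adjusted p = 0.00434 and 0.00379, and without the 10 µM library 0.089 and 0.102).

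The PFI-2 samples lay above all 26 others of their flow cell in 82 genes (0.591%) and below all of them in 24 (0.173%). Those with the widest gaps at 5 TPM or more included, on the higher side, CYP4F29P, HEMK1, LRRCC1, PDSS1 and SPOCK3 beside genes named above. SPOCK3, a secreted proteoglycan, stood at 13.7 and 14.1 TPM against 7.37 to 8.93 TPM in DMSO (0.71, adjusted p = 0.0134) and up to 12.3 TPM in the others. HEMK1, a methyltransferase of release factors in mitochondria, stood at 12.3 and 9.65 TPM against 5.81 to 6.59 TPM (0.72, adjusted p = 0.134) and up to 8.51 TPM. On the lower side, LGALS1, the secreted lectin galectin, stood at 1030 and 1027 TPM against 1455 to 1522 TPM in DMSO (-0.53, adjusted p = 0.00379) and 1066 to 1872 TPM in the others. RPL13 and RPL28, ribosomal proteins, stood at 224 and 230 TPM and at 197 and 200 TPM, against 302 to 315 TPM and 258 to 268 TPM in DMSO (adjusted p = 0.0115 and 0.0491), and CD81, a tetraspanin, at 211 and 230 TPM against 294 to 315 TPM (adjusted p = 0.0273). SPOCK3, LGALS1, RPL13, RPL28 and CD81 missed the threshold against DMSO without the 10 µM library (adjusted p = 0.145, 0.0815, 0.17, 0.351 and 0.356), and they missed it without the 1 µM library as well. RPL28 also missed it without any 1 of the 4 DMSO samples, and CD81 without 3 of the 4 taken singly. ALDOA, COX6A1, KIAA0930 and MIR193BHG lay below all 26 others and passed neither test.

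The 19 pathway lists held 298 tested genes, of which 1 was higher than DMSO by the adjusted p (CCDC80) and 7 were lower, where 0.879% and 1.53% of all tested genes were. Against the other compounds 1 was higher, again CCDC80, and 0 were lower, by limma, where 0.259% and 0.0936% of all tested genes were (1927 genes passed an unadjusted p of 0.05 in that contrast). List medians ran from -0.31 for the core regulatory factors to 0.26 for cholesterol synthesis against DMSO, and from -0.25 for cholesterol synthesis to 0.25 for WNT and beta-catenin targets against the other compounds. Over all tested genes the median was 0.05 in each contrast, with 58.9% and 59.9% of genes above 0.

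Among the enzymes of histone H3 lysine 4 methylation, 0 of 23 tested genes passed, with a median of -0.01 and single values from -0.26 to 0.42. WDR5, the common subunit of the lysine 4 methyltransferase complexes, stood at 212 and 227 TPM against 220 to 224 TPM in DMSO. Among genes for proteins that SETD7 methylates, 0 of 20 passed, with a median of 0.01; CTNNB1, the beta-catenin gene, stood at 452 and 469 TPM against 433 to 442 TPM, and E2F1 at 186 and 158 TPM against 175 to 181 TPM. These are transcript levels, and methylation of the proteins was not measured. Among 14 other SET-domain and lysine methylation enzymes 0 passed (median 0.15).

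In the Hippo pathway 0 of 18 components passed, with a median of 0.03, and YAP1 itself stood at 81.9 and 87.5 TPM against 76.2 to 80.9 TPM in DMSO. Of 19 tested YAP and TEAD targets, CCDC80 alone passed, and the median was 0.03. CYR61 and CTGF, the matricellular targets most often used as a readout of YAP, stood at 168 and 209 TPM against 158 to 191 TPM and at 24.3 and 27.8 TPM against 17.8 to 22.4 TPM (adjusted p = 0.884 and 0.705). ANKRD1, a nuclear muscle protein, stood at 12.4 and 11.8 TPM against 9.49 to 11.8 TPM, AXL, a receptor kinase, at 27.6 and 33.8 TPM against 35.4 to 42.6 TPM, and AMOTL2, a YAP-binding scaffold, at 36.1 and 34.6 TPM against 45.7 to 48.1 TPM. For p53 targets, where SETD7 has been linked to p53 stability, 0 of 21 passed (median -0.01), with CDKN1A, the cell cycle inhibitor, at 28.4 and 28.2 TPM against 24.9 to 29.2 TPM.

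Of 24 tested myogenic genes, 4 were lower than DMSO by the adjusted p, where 1.53% of all tested genes were. DES, the muscle intermediate filament desmin, stood at 295 and 308 TPM against 413 to 443 TPM in DMSO (-0.49 ± 0.09, adjusted p = 0.00144), and the groups did not overlap. TNNT1 and TNNI1, slow troponins, stood at 1255 and 1258 TPM against 1420 to 1497 TPM and at 70.6 and 76.7 TPM against 93.6 to 105 TPM (-0.22 and -0.41, adjusted p = 0.0453 and 0.0154). CDH15, the muscle cadherin, stood at 238 and 223 TPM against 317 to 339 TPM (-0.50, adjusted p = 0.0241). The median of the 24 was -0.07, 10 were above 0, and against the other compounds 0 passed (median 0.01); for DES the difference there was -0.29 (adjusted p = 0.0642). The other 3 lower members were HSPB1, a small heat shock protein (702 and 661 TPM against 1006 to 1109 TPM, -0.62, adjusted p = 0.000773), ID1, an inhibitor of myogenic bHLH factors and an immediate early gene (79.2 and 80.0 TPM against 124 to 129 TPM, -0.67, adjusted p = 0.0248), and ISG15, an interferon-induced ubiquitin-like protein (38.3 and 32.1 TPM against 64.5 to 72.2 TPM, -0.92, adjusted p = 0.00887). Each lay below all DMSO samples, as did 2772 of 13885 tested genes (20%). Without the 10 µM library HSPB1 passed against DMSO (adjusted p = 0.02), and DES, TNNT1, TNNI1, CDH15, ID1 and ISG15 did not (0.0714, 0.315, 0.28, 0.154, 0.234 and 0.0742).

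Lists of growth and stress gave no member past the test in either contrast, apart from those named. Of 16 mitotic genes 13, of 20 E2F and replication genes 11 and of 16 genes of the ATF4 and unfolded protein response 12 lay above all 4 DMSO samples, where 31.5% of all tested genes did, with medians of 0.15, 0.09 and 0.23. CCNB1, the mitotic cyclin, stood at 441 and 422 TPM against 383 to 395 TPM. Cholesterol synthesis had a median of 0.26 against DMSO with 13 of 16 above 0, and of -0.25 against the other compounds with 2 of 16 above 0. HMGCS1, an early enzyme of that route, stood at 127 and 104 TPM against 82.0 to 94.1 TPM (adjusted p = 0.668). The NF-kappa-B (12 tested), WNT (10), HIF (18), and glycolysis, serine and polyamine (13) lists had medians between -0.07 and 0.02 against DMSO, and the heat shock (14), immediate early (18) and interferon (10) lists, which held HSPB1, ID1 and ISG15, had medians of -0.07, -0.12 and 0.04.

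**Figure D5:**
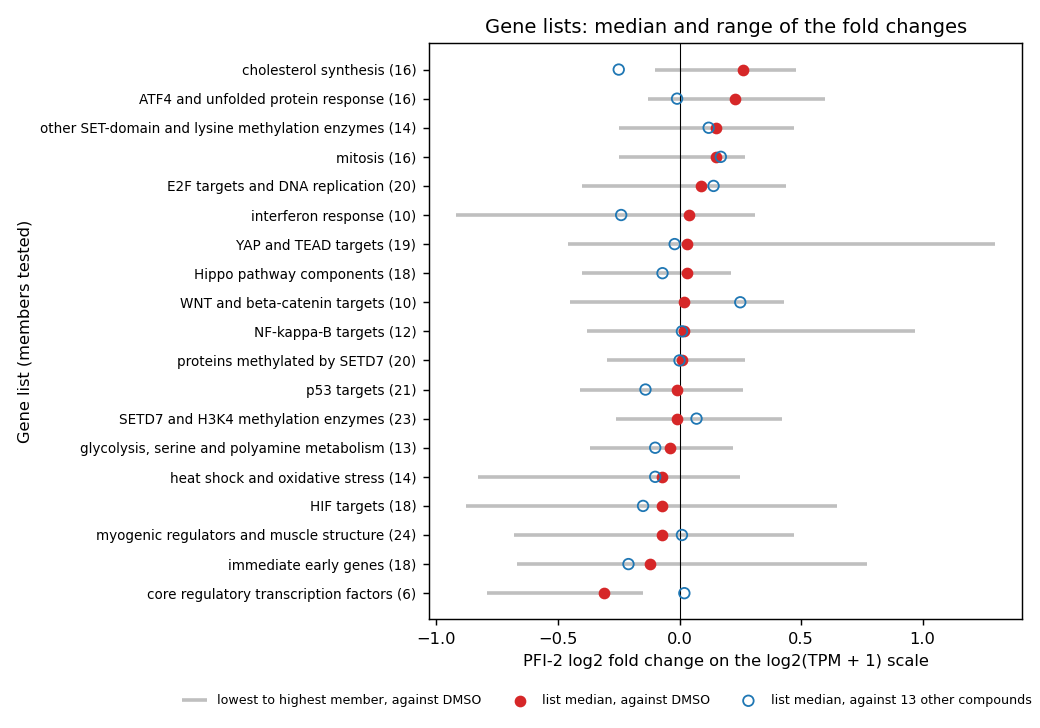
Median log2 fold change of PFI-2 in each of 19 pathway lists against DMSO (filled points) and against the 13 other compounds of the flow cell (open points), with the grey line spanning the lowest to the highest member against DMSO and the number of tested genes in brackets. The core regulatory factors lie lowest against DMSO (-0.31) and at 0.02 against the other compounds, and the highest member of the YAP and TEAD list is CCDC80 at 1.298.

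The markers of the labelled cells were present in every sample. The 11 tested FP-RMS markers summed to 2360 and 2280 TPM with PFI-2, to 2820 to 2950 TPM in DMSO and to 1250 to 3400 TPM in the 26 others. Their median was -0.19 against DMSO, with 4 of 11 above 0, and 0.08 against the other compounds, with 8 of 11 above 0. In bulk RNA fewer cells of a type and less RNA per cell cannot be told apart. Of 7 fibroblast markers 5 were tested, with a median of 0.66 against DMSO and 0.31 against the other compounds. Of the 5, 2 were higher than DMSO by the adjusted p, beside 0.879% of all tested genes, and 0 passed against the other compounds. These were COL1A1, a fibrillar collagen, at 151 and 154 TPM against 89.7 to 102 TPM (0.66, adjusted p = 0.02), and PDGFRB, a platelet-derived growth factor receptor, at 15.01 and 16.1 TPM against 7.32 to 9.07 TPM (0.89, adjusted p = 0.0429). Without the 10 µM library they had 0.182 and 0.246. The 5 summed to 176 and 180 TPM with PFI-2, 103 to 116 TPM in DMSO and 77.1 to 228 TPM in the 26 others, while the defining marker THY1 was at 0 in both PFI-2 samples and LUM at 0 and 0.229 TPM. Their part in the rise of the matrix genes CCDC80 and THBS1 was not tested. Of the epithelial, endothelial and blood cell markers 0 of 6, 1 of 5 and 2 of 6 reached the level to be tested, and 0 passed.

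With 1 sample per dose the doses could be compared only as values, with no test. Among 11301 genes at 5 TPM or more in at least 1 of both PFI-2 samples, the median difference of 10 against 1 µM was 0.02 and 226 were at least 2-fold apart, 86 higher and 140 lower at 10 µM. Of these, 163 were small RNA genes and 218 had under 50 units in both libraries. The same count ran from 114 for PFI-3 to 2689 for UNC0638 over the 14 compounds of the flow cell, and PFI-2 came 9th from the fewest. The 5 widest differences lower at 10 µM were MIR548AR, MIR4426, MIR548AQ, MIR4326 and MIR5581, and the 5 higher were MIR6840, MIR6768, SNORA5A, MIR6820 and SNORD59A. MIR4426 stood at 103 TPM (26 units) with 10 µM and 3222 TPM (418 units) with 1 µM, against 2634 to 3583 TPM in DMSO, but its deposited entry joins distant places on chromosome 1, so that the gene behind it is uncertain. The other 9 were at 0 in one library and at 2 to 11 units in the other. Of the 43 genes called against DMSO, 5 were among the 226 of 11301, with ATP5E, DDT, SNORA80B and MIR4723 lower and LOC101928307 higher at 10 µM. CCDC80, CD36 and GABRE differed between doses by 0.24, 0.15 and -0.13 on the log2 scale and MYOD1 by 0.05.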

How the data were processed

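RNA-seq of 44 screen samples was used. Per the study's methods the authors selected poly-A RNA, sequenced it on a HiSeq, mapped the reads to hg19 (STAR) and quantified genes (RSEM). The deposited unit is TPM per gene, normalised by the authors for length and library size, and replicates were not pooled. A tool list in the submitters' notes also names edgeR, whose role is not given.

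Samples were grouped from the labels. In 100% of 23645 genes the TPM values were whole multiples of a gene's step, within 0.02 of a whole number, after 1 scale factor per sample. These numbers described depth and entered only alternatives, and they cover counting error alone. The main test was limma 3.58.1 in R 4.3.3 on log2(TPM + 1) of all 44 samples, with 1 group per compound (both doses as replicates) and the 4 DMSO samples as 1 group, a trended prior and Benjamini-Hochberg adjustment over the 13885 tested genes. PFI-2 was set against DMSO and against the mean of 13 compounds of its flow cell. Calls required at least a 2-fold change with an adjusted p under 0.05. Tables and figures were made with Python 3.11.15, pandas 2.3.3, numpy 2.4.6 and matplotlib 3.10.9. The procedure was tested on simulated data.

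Named genes were SETD7, the core regulatory factors, up to 12 called genes per direction and contrast with a mean TPM of at least 5 by size of change (filled to 5 by adjusted p), all genes called against both references, list members, and the 5 widest dose differences and 10 widest gaps to the 26 other samples per direction. Members and lists were chosen with earlier results of these data known. Alternatives were another pseudocount, filter, scaling and weights, voom on whole numbers, other sets of samples, and each replicate left out. The N1302 and entinostat samples were not used here, and some genes that the rule takes are not reported here.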

Additional observations from a re-analysis of the deposited data

Results flagged for a closer look

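Among the 48 genes named by the rule, 8 had 1 of the 4 DMSO samples far from the other 3, by a gap to the nearest other sample above Dixon's critical share of the whole range. Chance alone marks about 1 in 20 groups of independent samples, which these 4 may not be, and most of these genes were at a few units. On flow cell C4JM1ACXX, the 0.2% DMSO sample stood apart for CYP4F29P at 10.7 TPM, for SNORA5C at 8.89 TPM and for SNORD41 at 2.17 TPM, and the 0.1% DMSO sample for SNORA80B at 0 TPM and for TRAPPC5 at 21.5 TPM. On flow cell H144EBGXX, the 0.2% DMSO sample stood apart for SNORD82 at 1.63 TPM and for TMEM238 at 0.737 TPM, and the 0.1% DMSO sample for MIR4723 at 1.52 TPM. In each of the 8 genes the PFI-2 samples lay on 1 side of all 4 DMSO values. Over all 13885 tested genes, 4370 (31.5%) lay above and 2772 (20%) below all 4, and the rule itself names genes by such differences. Without the sample that stood apart, the log2 fold change against DMSO was 0.82 for CYP4F29P (0.72 with it), -1.23 for SNORA5C (-1.04), 3.01 for SNORD41 (2.59), 2.10 for SNORA80B (2.35), -1.34 for TRAPPC5 (-1.27), 3.82 for SNORD82 (3.47), 1.51 for TMEM238 (1.31) and 2.87 for MIR4723 (2.53), and SNORA80B then lost its call.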

How the results depend on the processing

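The number of genes called against DMSO, 43, became 73 with a pseudocount of 0.1, 94 with array weights, 117 with only the PFI-2 and DMSO samples fitted, 18 with a mean of at least 5 TPM required, 24 with DMSO averaged within a concentration, 17 with only the C4JM1ACXX DMSO samples and 335 by adjusted p alone; with 1 sample left out it ran from 28 (without PFI-2 10 µM) to 43. Against the other compounds, 12 became 19 with a pseudocount of 0.1, 25 with array weights, 3 at 5 TPM, 4 with only the flow cell fitted, 7 against 6 methylation compounds and 49 by adjusted p alone. Against both, 9 became 18, 19, 1 and 40 with a pseudocount of 0.1, array weights, 5 TPM and adjusted p alone. Between DMSO concentrations, 1 became 0 with a pseudocount of 0.1 and 2 with a replicate block. With the shared high or low label as a covariate, the counts against DMSO, the other compounds and both were 46, 13 and 10. The dose count, 226, became 108 at 10 TPM. Without the 3 libraries of mostly even numbers, an alternative chosen after seeing the data, the 3 counts were 38, 15 and 13. Apart from the smaller gene set at 5 or 10 TPM and fewer samples, the cause was not tested. Over 48 named genes and 8 settings, 319 of 384 values kept direction and side of the threshold, 64 lost it, 1 (SOX8) gained it and 0 reversed. The threshold in these counts was the adjusted p alone, without the 2-fold limit, so MZT2B counted as kept at -0.95, -0.98 and -0.94. With 1 sample per dose and 5737939 units at 1 µM, genes of few units cannot be told from counting noise.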

Other observations

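The gene families described here were chosen after values were seen. By the adjusted p, 0.879% of all tested genes were higher and 1.53% lower than DMSO, and 0.259% were higher and 0.0936% lower than the other compounds. Of 27 tested replication-dependent histone genes, which package new DNA, 22 were below 0 against DMSO with a median of -0.57, and 23 were below 0 against the other compounds with a median of -0.48, but HIST1H1C alone passed the test against DMSO, at 36.2 and 28.5 TPM against 51.6 to 61.8 TPM (-0.78, adjusted p = 0.023, and 0.0904 without the 10 µM library). Their messages largely lack a poly-A tail, and the libraries were poly-A selected.

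Of 77 tested cytosolic ribosomal protein genes, 5 were higher and 16 lower than DMSO by the adjusted p, and of 80 respiratory chain and ATP synthase genes 0 were higher and 8 lower. Against the other compounds 0 of the 77 passed in either direction by limma, and of the 80, 0 were higher and 1 lower. RPS15 stood at 664 and 713 TPM against 1036 to 1068 TPM, while RPL39 stood at 1046 and 1051 TPM against 514 to 832 TPM and differed in DMSO between flow cells. Of 424 tested ZNF genes, 7 were higher and 3 lower than DMSO with a median of 0.15, and 2 were higher and 1 lower than the other compounds. Of 19 vacuolar ATPase genes, which acidify lysosomes, 2 were lower against both references. These were ATP6V0C, at 140 and 167 TPM against 209 to 228 TPM in DMSO (-0.51, adjusted p = 0.0209) and -0.53 (adjusted p = 0.0189) against the other compounds, and ATP6V0D1, at 33.6 and 35.2 TPM against 43.5 to 51.2 TPM (-0.41, adjusted p = 0.0377) and -0.46 (adjusted p = 0.0204). Without the 10 µM library the adjusted p was 0.441 and 0.354 against DMSO and 0.495 and 0.346 against the other compounds. BCHE, a secreted cholinesterase also picked after its values were seen, stood at 600 and 584 TPM, above DMSO at 360 to 391 TPM and above the 26 others at up to 575 TPM (0.64 and 0.52, adjusted p = 0.00144 and 0.00893, and 0.0594 and 0.178 without the 10 µM library).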
